A study of Mus musculus with 2 samples.

Results

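The enzymes that detoxify foreign compounds and handle glutathione were followed across 3 sorted populations of mouse small intestinal epithelial cells. Members were all genes whose symbol in the array's probe annotation begins as cytochrome P450 (Cyp, without Cyp51), UDP-glucuronosyltransferase (Ugt), glutathione S-transferase (Gst and Mgst), sulfotransferase (Sult), aldehyde dehydrogenase (Aldh), alcohol dehydrogenase (Adh), aldo-keto reductase (Akr), carboxylesterase (Ces) or glutathione peroxidase (Gpx), each followed by a number or, for Gst, a class letter. This gave 146 genes on 149 probes, of 16390 named genes. By family there were 58 Cyp, 21 Gst, 19 Aldh, 12 Akr, 11 Ugt, 9 Sult, 6 Ces, 6 Gpx and 4 Adh genes.

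All cells came from mice that carried Atoh1-crePGR together with Lgr5-EGFP-IRES-creERT2 and, at Rosa26, a tdTomato reporter, so every population had both Cre recombinases and both fluorescent reporters in its genome. EGFP stands at Lgr5, a gene of crypt base stem cells, and the RU486-activated Cre is driven by Atoh1, the transcription factor of the secretory lineage. RU486 was given to all of them intraperitoneally on 5 consecutive days, and cells pooled from 4 mice were sorted 20 days after recombination. Cells with EGFP and no tdTomato are called EGFP only, cells with both proteins double positive, and cells with tdTomato and no EGFP tdTomato only. Each population was 1 sorted pool, so animals cannot be told apart within it, and the sources used here do not give the age or sex of the mice. RNA was measured on 2 two-colour arrays. EGFP-only RNA carried the red dye Cy5 on both, while double-positive RNA carried the green dye Cy3 on the first and tdTomato-only RNA on the second.

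Phase I enzymes such as the cytochromes P450, alcohol and aldehyde dehydrogenases, aldo-keto reductases and carboxylesterases oxidise, reduce or hydrolyse drugs, plant compounds, steroids and aldehydes. Phase II enzymes then attach glucuronic acid, sulfate or glutathione, which makes the products easier to excrete. Glutathione peroxidases use glutathione to reduce peroxides. In the small intestine these enzymes are known above all from the absorptive enterocytes of the villus, the first cells that meet compounds from food.

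Intensities are spot medians as scanned, in arbitrary units, and can be set side by side for 1 probe but not between probes. Ratios are on the log2 scale, Cy3 population over EGFP only, after background correction and loess normalization. Loess removes the average difference between the dyes at each intensity. For this reason a spot with equal intensities in both dyes can have a ratio above 0. There was no replicate array and no dye swap, so no ratio has a replicate error and no test was made. In the ratios against EGFP only, a dye effect on a single probe cannot be told apart from a difference between populations. Members were counted as higher or lower when they differed by 2-fold or more, which is 1 unit of log2 in either direction. EGFP-only RNA was read on each array, and for the 109 member probes above background these readings had log2 differences with an SD of 0.06 and a maximum of 0.28. This describes the technical spread alone. Both comparisons with EGFP only share that population, so their values are given side by side and are not independent of each other.

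The sorted populations differed in cell type markers, which sets the frame for every value below. Lgr5 had a log2 ratio of 0.26 in double-positive cells and −0.89 in tdTomato-only cells, both against EGFP only, and median centring without loess turned the first to −0.26. Of 12 measured enterocyte markers, 10 were at least 2-fold higher in double-positive and 11 in tdTomato-only cells, with median log2 ratios of 2.25 and 2.61. Paneth markers had medians of 4.48 and 4.25 and goblet markers 2.53 and 3.43. These medians are lower limits where they rest on saturated spots, since the green channel was at the scanner's ceiling for 4 of 8 Paneth and 1 of 10 goblet markers in double-positive cells and for 3 of 8 and 3 of 9 in tdTomato-only cells. Markers of T and intraepithelial lymphocytes had 2.76 and 1.54. Myeloid markers had 0.18 over 7 and 0.54 over 5 measured genes, so these medians do not cover the same genes. Enteroendocrine markers had medians of −1.04 and −0.38, tuft markers −0.38 and −0.01, stem cell markers −0.64 and −1.16, and cell cycle genes −0.61 and −1.30. The 3 measured fibroblast and endothelial markers had medians of 0.05 and −0.17. The part of these markers in the enzyme ratios was not tested, and in sorted pools more cells of a type and more RNA per cell cannot be told apart.

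Most members were measurable. On the first array 107 of the 146 members were above background in both channels, 15 in the double-positive channel alone, none in the EGFP-only channel alone and 24 in neither. On the second array 106 were above background in both channels, 13 in the tdTomato-only channel alone, 1 (Ugt2b37) in the EGFP-only channel alone and 26 in neither. In neither channel of both arrays were 22 members, among them Cyp1a2, Cyp2a5, Cyp4a14, Cyp8b1, Cyp26b1, Aldh1a3, Aldh3a1, Akr1c6, Ugt2a1, Ugt8a and Gpx1, and nothing is said of their levels. Members above background in the Cy3 channel alone were 10.3% (double positive) and 8.9% (tdTomato only), against 8.44% and 6.35% of all 16390 genes. The reverse held for 0.738% and 1.23% of all genes, so the uneven split is found across both arrays. Counts and medians below cover the members above background in both channels, which a member can reach through the population where it is high.

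tdTomato-only cells had higher signals for a group of P450 and conjugating enzymes. Of the 106 measured members, 16 were at least 2-fold higher than in EGFP-only cells (15.1%), against 6.15% of all 11381 measured genes. A single member, Ugt1a6a, was at least 2-fold lower (0.943%), against 1.19% of all genes. The members' median log2 ratio was 0.17 and that of all genes −0.01. Ratios above 0 were found for 69 members and below 0 for 37. The split of 16 higher and 1 lower became 12 and 8 with median centring in place of loess, where 3.58% and 7.47% of all genes were counted. In the authors' deposited ratios it was 24 and 8, against 10.6% and 7.28% of all genes. Median centring also moved the median of all genes to −0.21 on both arrays, and the members' median to −0.02.

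In double-positive cells the share of higher members was close to that of all genes. Of 107 measured members, 6 were at least 2-fold higher than in EGFP-only cells (5.61%), against 5.1% of all 11774 measured genes, so this count says nothing particular about the enzymes. At least 2-fold lower were 2 members, Adh7 and Ugt1a6a (1.87%), against 0.34% of all genes. The median log2 ratio was 0.03 for the members and −0.01 for all genes. The authors' deposited ratios put 13 members higher and 7 lower, against 10.6% and 3.57% of all genes. With median centring there were 4 and 11, against 3.09% and 6.29%.

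The 2 tdTomato populations were compared through the difference of their ratios against EGFP only. Of 105 members above background in all 4 channels, 4 were at least 2-fold higher in tdTomato-only than in double-positive cells (3.81%), against 0.813% of all 11311 genes. These were Gsta4, Gsta2, Akr1c14 and Cyp2s1. No member was 2-fold lower, against 0.274% of all genes, and 77 members were above 0 and 28 below. The members' median was 0.13 and that of all genes −0.02. In the same comparison goblet markers had a median of 0.92, with 2 of 8 saturated in tdTomato-only cells, enteroendocrine markers 0.78, enterocyte markers 0.45 and tuft markers 0.17. Medians were below 0 for markers of T and intraepithelial lymphocytes (−1.19), stem cells (−0.55), Paneth cells (−0.33) and myeloid cells (−0.32), for cell cycle genes (−0.33) and for fibroblast and endothelial markers (−0.12).

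**Figure D1:**
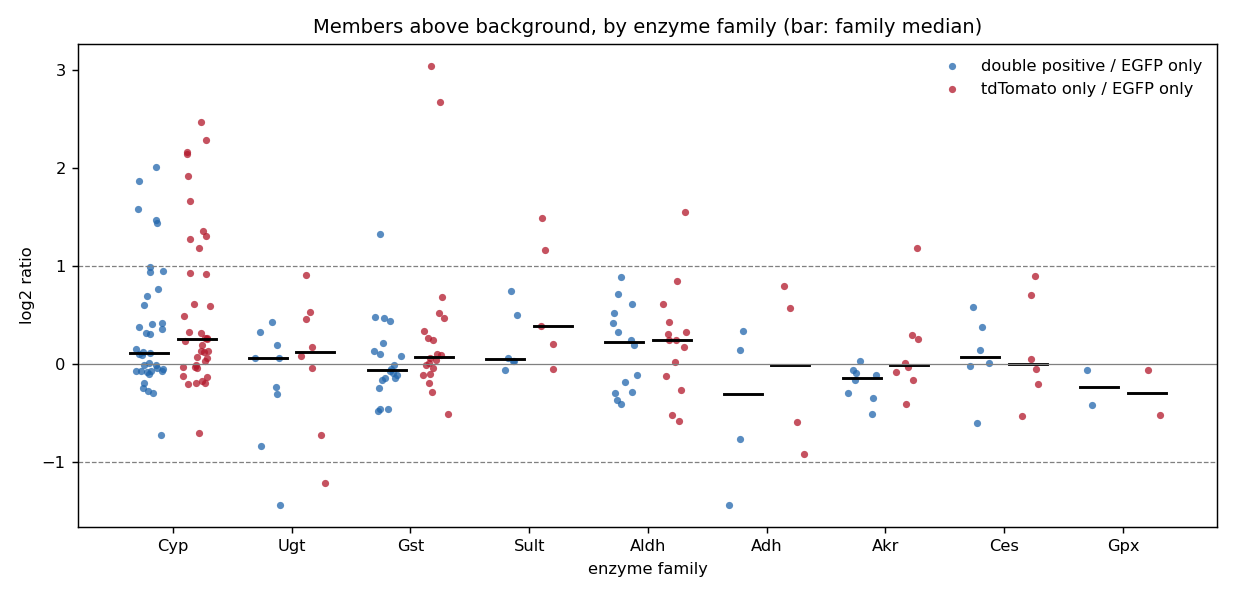
Log2 ratios of the members above background by enzyme family (horizontal axis), each point 1 gene, blue for double positive over EGFP only and red for tdTomato only over EGFP only; bars are family medians and dashed lines mark 2-fold. The highest points are Gsta4 (3.04), Gsta2 (2.67) and Cyp3a44 (2.47) in tdTomato-only cells, while most points of every family lie between the dashed lines.

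Cytochromes P450 supplied 10 of the 16 higher members in tdTomato-only cells, out of 39 measured, where 6.15% of all genes were higher. In double-positive cells they supplied 5 of the 6, out of 38, where 5.1% of all genes were higher. P450s were also the largest family, with 39 of the 106 and 38 of the 107 measured members. Their median log2 ratios were 0.12 in double-positive and 0.25 in tdTomato-only cells, and median centring turned the first to −0.03. None was 2-fold lower in either, though the deposited ratios of Cyp4x1 were −1.61 and −1.67. The higher genes in tdTomato-only cells were 4 of 5 measured Cyp3a genes, 1 of 6 Cyp2c, 1 of 2 Cyp2b, 1 of 2 Cyp2d and 1 of 4 Cyp4f genes, with Cyp2s1 and Cyp27a1.

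Cyp3a genes encode P450s with broad substrate ranges that account for much of intestinal drug oxidation. All 5 Cyp3a members were measured, and their median log2 ratio was 0.99 in double-positive and 1.67 in tdTomato-only cells. Of the 5, 2 and 4 were past 2-fold higher, against 5.1% and 6.15% of all genes. The promoters of the 4 past 2-fold in tdTomato-only cells are shown to compare their sequences, with that of Cyp2c40 as a further higher P450. They are the 250 bases upstream of the start of the RefSeq gene in GRCm38.p6, all on the minus strand, at chr5:145879855-145880104 (Cyp3a11), chr5:137921620-137921869 (Cyp3a13), chr5:145469724-145469973 (Cyp3a16), chr5:145805875-145806124 (Cyp3a44) and chr19:39812815-39813064 (Cyp2c40). Capitals mark CAAAGTCCA, letters of the site known for HNF4, a nuclear receptor of liver and gut.
Cyp3a11: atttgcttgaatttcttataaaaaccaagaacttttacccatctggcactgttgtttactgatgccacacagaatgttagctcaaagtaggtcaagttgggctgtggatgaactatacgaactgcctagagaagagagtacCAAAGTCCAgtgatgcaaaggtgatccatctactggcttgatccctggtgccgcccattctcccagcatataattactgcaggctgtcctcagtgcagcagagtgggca
Cyp3a13: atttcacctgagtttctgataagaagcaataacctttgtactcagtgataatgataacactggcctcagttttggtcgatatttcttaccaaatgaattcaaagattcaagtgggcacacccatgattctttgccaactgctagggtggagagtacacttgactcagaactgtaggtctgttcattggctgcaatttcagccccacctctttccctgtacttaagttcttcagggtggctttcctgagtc
Cyp3a16: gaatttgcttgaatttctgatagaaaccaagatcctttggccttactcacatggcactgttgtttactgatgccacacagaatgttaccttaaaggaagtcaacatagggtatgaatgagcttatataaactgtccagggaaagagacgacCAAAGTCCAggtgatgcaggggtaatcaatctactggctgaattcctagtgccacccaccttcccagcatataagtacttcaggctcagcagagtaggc
Cyp3a44: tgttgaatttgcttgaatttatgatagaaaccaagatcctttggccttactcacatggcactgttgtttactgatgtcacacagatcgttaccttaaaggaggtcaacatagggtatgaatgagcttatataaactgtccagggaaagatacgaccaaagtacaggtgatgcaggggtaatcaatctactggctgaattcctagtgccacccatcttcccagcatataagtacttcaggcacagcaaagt
Cyp2c40: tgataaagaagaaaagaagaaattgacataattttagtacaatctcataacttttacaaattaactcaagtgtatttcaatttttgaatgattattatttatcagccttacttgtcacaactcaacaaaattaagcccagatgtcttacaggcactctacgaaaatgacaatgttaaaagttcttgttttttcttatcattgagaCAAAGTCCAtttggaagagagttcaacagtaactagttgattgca

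The capitals begin 109 bases upstream of the start in Cyp3a11, 99 in Cyp3a16 and 45 in Cyp2c40. Cyp3a44 holds the letters with 1 substitution, C7A, counted from 1 at the 5′ end of CAAAGTCCA, 95 bases upstream, and the Cyp3a13 window holds no CAAAGTCCA. The Cyp3a16 and Cyp3a44 windows were identical at 95.9% of 246 aligned bases, Cyp3a11 and Cyp3a16 at 83.3% of 239, and Cyp3a11 and Cyp3a44 at 80.9% of 235. The Cyp3a13 window was identical to these at 64.4% to 68.1% of aligned bases. On either strand, CAAAGTCCA was in the window of 3 of 15 members higher in tdTomato-only cells, 5 of 120 members (4.17%) and 0.451% of all 27025 genes in the table. The other letters searched on both strands were GCGTG, the core bound by the aryl hydrocarbon receptor, TGACNNNGC, the antioxidant response element, and TTTATNG, for CDX factors. GCGTG was in 4 of the 15 (Cyp4f14, Gsta2, Sult1d1 and Sult2b1) and in 30.9% of all genes. TGACNNNGC was in 1 (Cyp4f14) and in 11.5%, and TTTATNG in 2 (Akr1c14 and Gsta2) and in 11.3%. The motifs and windows were chosen after values and matches had been seen, and matches of letters are a description only. Gsta4 was not in the promoter table.

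Cyp3a44 had spot medians of 134 and 124 in EGFP-only cells on the first and second array, 353 in double-positive and 498 in tdTomato-only cells. It was 3.64-fold higher in double-positive cells (log2 1.86) and 5.54-fold higher in tdTomato-only cells (2.47). Cyp3a13 had 167 and 170 in EGFP-only, 340 in double-positive and 594 in tdTomato-only cells, with log2 ratios of 1.47 and 2.28. Both genes were lowest in EGFP-only and highest in tdTomato-only cells.

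Cyp3a16 was near background in EGFP-only cells, with spots of 82.9 and 80.9, against 144 in double-positive and 211 in tdTomato-only cells. Its log2 ratios were 0.99 and 1.67, and the deposited ratios put them at 2.66 and 3.70. Cyp3a11 had spots of 84.0 and 85.5 in EGFP-only, 110 in double-positive and 187 in tdTomato-only cells, with ratios of 0.42 and 1.36. Ratios of such dim probes depend on how background is removed. Cyp3a25 did not follow, with spots of 142 and 142, 114 and 159 in the same order and ratios of −0.25 and 0.32. The sources used here do not say whether each of these probes separates its gene from its close relatives, so the values of single Cyp3a genes are uncertain. The same limit holds for the other groups of close relatives below, such as the Gsta and Akr1c members.

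Cyp4f14, an omega-hydroxylase of fatty acids and leukotriene B4, had spots of 663 and 629 in EGFP-only, 1279 in double-positive and 1887 in tdTomato-only cells. Its log2 ratios were 1.59 and 2.16. The other 3 Cyp4f members stayed within 2-fold in both comparisons, among them Cyp4f13 (0.31 and 0.59). Cyp2c40, which in the mouse oxidises arachidonic acid, had 96.6 and 102 in EGFP-only, 286 in double-positive and 338 in tdTomato-only cells, with ratios of 2.01 and 2.14. Its 2 Cy3 populations differed by 0.13, or −0.10 in the deposited ratios. Cyp2c55, another arachidonic acid P450, was just under 2-fold in both, at 0.94 and 0.92. The median of the 6 measured Cyp2c members was 0.04 and 0.10, with Cyp2c40 the 1 member past 2-fold.

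Cyp2d26 had spots of 411 and 388 in EGFP-only, 751 in double-positive and 1030 in tdTomato-only cells, with log2 ratios of 1.43 and 1.92. With median centring the first was 0.93. Cyp2b9, of the phenobarbital-inducible Cyp2b subfamily, had 76.8 and 76.6 in EGFP-only, 122 in double-positive and 167 in tdTomato-only cells. Its ratios were 0.76 and 1.31, and with a background limit of 3 SD in place of 2 SD it was no longer measured. Cyp2b13, of the same subfamily, averaged 0.70 and 0.93, but its 3 probes disagreed. One probe gave 1.87 and 2.56, the others −0.07 and −0.16, and 0.29 and 0.38.

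Cyp2s1, a P450 of epithelia outside the liver, had spots of 243 and 249 in EGFP-only, 210 in double-positive and 452 in tdTomato-only cells. It was 2.43-fold higher in tdTomato-only than in EGFP-only cells (log2 1.28), while double-positive cells had a ratio of 0.12, or −0.24 with median centring. The tdTomato-only cells thus stood 2.24-fold above the double-positive ones (1.16). Cyp27a1, the mitochondrial sterol hydroxylase of bile acid synthesis, had 181 and 188 in EGFP-only, 217 in double-positive and 329 in tdTomato-only cells, with ratios of 0.60 and 1.18. Median centring put both Cyp2s1 and Cyp27a1 under 2-fold in tdTomato-only cells.

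Cyp39a1, an oxysterol hydroxylase, was highest in double-positive cells. Its spots were 460 and 459 in EGFP-only, 611 in double-positive and 428 in tdTomato-only cells. Its log2 ratios were 0.95 and 0.31, and its ratio between the tdTomato populations, −0.64, was the lowest reported for the 105 members, while Cyp2j5 was lower in the deposited ratios. Cyp4x1 was the lowest P450, at −0.73 and −0.71, with 169 and 150 in EGFP-only, 101 in double-positive and 99.1 in tdTomato-only cells. Cyp1a1, the textbook target of the aryl hydrocarbon receptor, had 284 and 288 in EGFP-only, 277 in double-positive and 315 in tdTomato-only cells, with ratios of 0.36 and 0.48. The 4 spots of Cyp1a1 were nearly level as scanned, while both normalized ratios lay above 0 and within 2-fold.

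Among the dehydrogenases, Aldh1a1, which makes retinoic acid from retinal, was the 1 member of its family past 2-fold as reported. Its spots were 271 and 263 in EGFP-only, 309 in double-positive and 564 in tdTomato-only cells, and its log2 ratios 0.61 and 1.55. The related Aldh1a7 had 162 and 149, 189 and 221 in the same order, with ratios of 0.52 and 0.85. Both were highest in tdTomato-only cells. Over the 14 measured Aldh members the medians were 0.22 and 0.25, turned to −0.16 and −0.17 by median centring. In tdTomato-only cells the deposited ratios put Aldh1a7 (1.13) and Aldh3b1 (1.14) past 2-fold higher and Aldh1b1 (−1.05) past 2-fold lower. Aldh6a1, of valine breakdown, and Aldh18a1, of proline synthesis, lay higher in double-positive than in tdTomato-only cells. Aldh6a1 had spots of 350 and 360 in EGFP-only, 458 in double-positive and 343 in tdTomato-only cells, with ratios of 0.88 and 0.31. Aldh18a1 had ratios of 0.71 and 0.24. Aldh1b1, a mitochondrial acetaldehyde dehydrogenase, had 11216 and 9880 in EGFP-only, 5146 in double-positive and 3909 in tdTomato-only cells, with ratios of −0.11 and −0.52.

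Of the 4 alcohol dehydrogenases, all measured, Adh7 had the lowest ratio in double-positive cells and Adh5 in tdTomato-only cells. Adh7, a class IV enzyme, oxidises retinol and ethanol. It had spots of 3717 and 3749 in EGFP-only, 842 in double-positive and 1574 in tdTomato-only cells. Adh7 was 2.70-fold lower in double-positive cells (log2 −1.44) and 1.51-fold lower in tdTomato-only cells (−0.59), and the second came to the 2-fold limit in the deposited ratios and to −1.26 with median centring. Adh5, the glutathione-dependent formaldehyde dehydrogenase, had 2962 and 3156 in EGFP-only, 1060 in double-positive and 1096 in tdTomato-only cells, with ratios of −0.77 and −0.92. Both genes were thus highest in EGFP-only cells. Adh6a (0.34 and 0.79) and Adh4 (0.15 and 0.58) had ratios above 0 in both comparisons.

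Akr1c14, a hydroxysteroid dehydrogenase of the aldo-keto reductases, had spots of 308 and 302 in EGFP-only, 226 in double-positive and 506 in tdTomato-only cells. Its log2 ratio was −0.09 in double-positive and 1.18 in tdTomato-only cells, a difference of 1.27. The other 3 measured Akr1c members, among them Akr1c12 (−0.34 and −0.17) and Akr1c13 (−0.30 and 0.01), remained within 2-fold. Over the 8 measured Akr members the medians were −0.14 and −0.01, the second of either sign among the alternatives. The 6 carboxylesterases, which hydrolyse ester drugs, all stayed within 2-fold, with medians of 0.07 and −0.00, the second again of either sign. They ranged from Ces3 (−0.60 and −0.53) to Ces2a (0.59 and 0.90). The deposited ratios put Ces3 past 2-fold lower in both comparisons (−1.30 and −1.20) and Ces2e past 2-fold higher in tdTomato-only cells (1.12).

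Glutathione S-transferases differed by class. The alpha class held the members with the highest ratios in tdTomato-only cells, while the mu, pi and theta classes were within 2-fold. Median centring alone put Gstp1, Gstp2 and Mgst1 past 2-fold lower in double-positive cells. Gsta4, which conjugates the lipid peroxidation product hydroxynonenal, had spots of 442 and 457 in EGFP-only, 438 in double-positive and 2502 in tdTomato-only cells. The tdTomato-only spot stood alone and the other 3 were level. Gsta4 was 8.22-fold higher in tdTomato-only than in EGFP-only cells (log2 3.04) and 5.89-fold higher than in double-positive cells (2.56). Its double-positive ratio was 0.48, and 0.01 with median centring.

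Gsta2 had spots of 200 and 210 in EGFP-only, 366 in double-positive and 938 in tdTomato-only cells, in a graded order. Its log2 ratios were 1.33 and 2.67, 6.39-fold for the second, and 0.93 and 2.23 with median centring. Gsta3, the third alpha member, had 121 and 125 in EGFP-only and 146 in each of the Cy3 populations, with ratios of 0.47 and 0.33. The 6 mu class (Gstm) members ranged from −0.14 to 0.44 and from −0.04 to 0.47. Gstm3 was at −0.14 and 0.47 and Gstm5 at 0.44 and 0.06.

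Gstp1 and Gstp2, of the pi class, were lower in double-positive than in the other cells. Gstp1 had 7074 and 7149 in EGFP-only, 2752 in double-positive and 3828 in tdTomato-only cells, with log2 ratios of −0.46 and −0.11. Gstp2 had ratios of −0.48 and −0.01. The membrane-bound Mgst1 was at −0.45 and −0.51, and Mgst3 at −0.01 and 0.69. Over all 20 measured Gst and Mgst members the medians were −0.06 and 0.07, and the second fell below 0 when processed otherwise, to −0.34 with median centring, −0.13 in the deposited ratios and −0.045 with quantile normalization.

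The remaining conjugating enzymes had ratios in both directions. Sult2b1, which sulfates cholesterol, had spots of 157 and 161 in EGFP-only, 209 in double-positive and 345 in tdTomato-only cells, with log2 ratios of 0.74 and 1.48. Sult1d1, a phenol and catecholamine sulfotransferase of the mouse, had 536 and 512 in EGFP-only, 528 in double-positive and 816 in tdTomato-only cells, with ratios of 0.50 and 1.16. These were the 2 of 5 measured sulfotransferases past 2-fold in tdTomato-only cells, where 6.15% of all genes were higher. The others were Sult1b1 (0.03 and 0.39), Sult1c2 (0.06 and 0.21) and Sult5a1 (−0.06 and −0.05). In the deposited ratios Sult1b1 and Sult1c2 were at 0.57 and 0.56 in tdTomato-only cells.

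Ugt1a6a, which glucuronidates planar phenols, was the 1 member at least 2-fold lower in both comparisons as reported. In the deposited ratios Adh5, Adh7, Ces3, Cyp4x1 and Ugt2b35 were also at least 2-fold lower in both. Ugt1a6a had spots of 387 and 391 in EGFP-only, 128 in double-positive and 151 in tdTomato-only cells. It was 2.71-fold lower in double-positive (log2 −1.44) and 2.31-fold lower in tdTomato-only cells (−1.21), and the deposited ratios were −2.20 and −1.84. Both Cy3 populations lay well under EGFP-only cells. Ugt2b35 was lower in the same way, at −0.84 and −0.72, with spots of 374 and 380 in EGFP-only, 172 in double-positive and 194 in tdTomato-only cells. Ugt2a3 had ratios of 0.19 and 0.91, Ugt2b34 0.42 and 0.53, and Ugt2b5 −0.31 and 0.17. Over the 9 and 8 measured Ugt members the medians were 0.06 and 0.13, and median centring turned them to −0.20 and −0.09.

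Of the 6 glutathione peroxidases, Gpx2 and Gpx3 were above background in all channels. Gpx2, the peroxidase of the gut epithelium, had spots of 9326 and 8870 in EGFP-only, 3602 in double-positive and 3539 in tdTomato-only cells, with log2 ratios of −0.42 and −0.52. The deposited ratios were −0.91 and −1.04. Gpx3, the secreted form, was near 0 (−0.06 on both arrays). Gpx7, a peroxidase of the endoplasmic reticulum, was above background in both Cy3 channels alone. Its bound was 1.49-fold higher in tdTomato-only cells, with spots of 72.7 in EGFP-only and 112 in tdTomato-only cells. In double-positive cells the bound was 1.18-fold higher. Both Gpx7 bounds rest on its own EGFP-only level below the background limit, so they are not strict lower limits. Among the other members above background in 1 channel alone, the highest bound was that of Aldh1l2, a mitochondrial folate enzyme. It was 1.38-fold in double-positive cells.

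**Figure D2:**
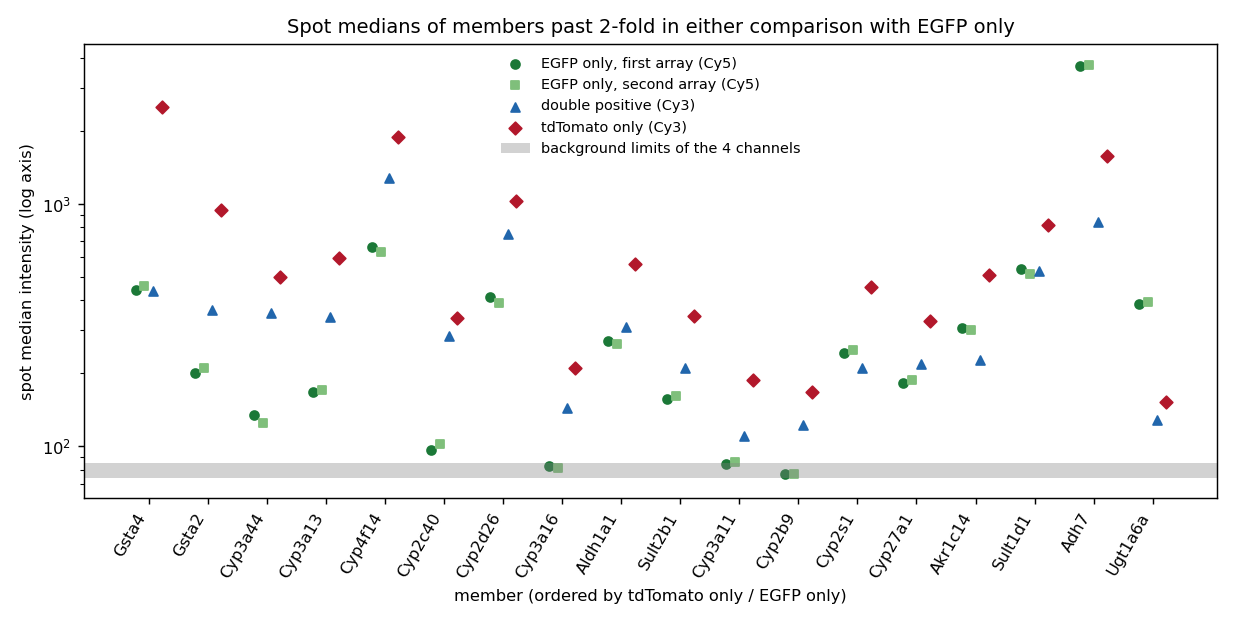
Spot median intensity (vertical log axis, arbitrary units) of the 18 members past 2-fold in either comparison with EGFP only, 1 point per channel: circles and squares are EGFP only on the first and second array, triangles double positive and diamonds tdTomato only; the grey band spans the background limits of the 4 channels. The circle and square of each gene nearly coincide, the Gsta4 diamond (2502) stands alone, and Adh7 and Ugt1a6a have both Cy3 points below both EGFP-only points.

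The members nearest the 2-fold limit are given for either side of it. In tdTomato-only cells the members just inside were Sult1d1 (1.16), Akr1c14 (1.18) and Cyp27a1 (1.18), and those just outside Cyp2b13 (0.93), Cyp2c55 (0.92) and Ugt2a3 (0.91). In double-positive cells Gsta2 (1.33), Cyp2d26 (1.43) and Cyp3a13 (1.47) were just inside, and Cyp3a16 (0.99), Cyp39a1 (0.95) and Cyp2c55 (0.94) just outside. Between the tdTomato populations Cyp2s1 (1.16) was the nearest inside, and Cyp3a11 (0.94) and Aldh1a1 (0.94) the nearest outside. On the low side Adh5 (−0.92 in tdTomato-only cells) and Ugt2b35 (−0.84 in double-positive cells) came closest without reaching the limit.

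Of the 16 higher members in tdTomato-only cells, 11 were past 2-fold under all 8 other ways of processing. Akr1c14, Cyp27a1, Cyp2s1 and Sult1d1 fell under 2-fold with median centring, and Cyp2b9 was not measured at the stricter background limit. In double-positive cells 4 of 6 were past 2-fold throughout, and Cyp2d26 and Gsta2 were not with median centring. The lower calls, Adh7 and Ugt1a6a in double-positive and Ugt1a6a in tdTomato-only cells, and the 4 higher calls between the tdTomato populations were past 2-fold under all 8.

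**Figure D3:**
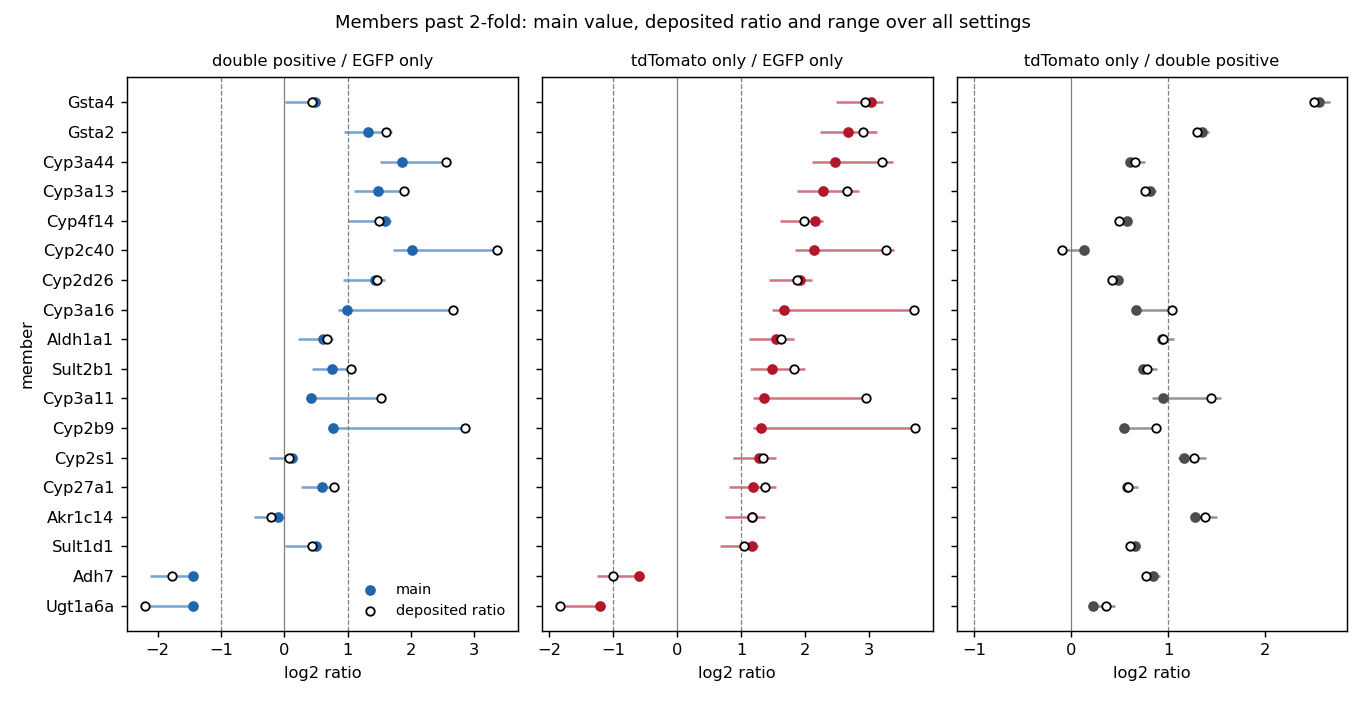
Log2 ratios (horizontal axes) of the 18 members past 2-fold, 1 panel per comparison: filled points are the reported values, open circles the authors' deposited ratios, and lines the range over all ways of processing; dashed lines mark 2-fold. The lines are longest for probes near background, such as Cyp2b9 (1.31, deposited 3.72) and Cyp3a16 (1.67, deposited 3.70) in tdTomato-only cells, and Gsta4 stays past 2 throughout the middle and right panels.

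Partner genes of these enzymes were followed through 7 lists, whose counts stand against the 5.1% and 6.15% of all genes at least 2-fold higher in double-positive and tdTomato-only cells. Of 14 measured xenobiotic receptors and their partners, 2 (14.3%) were at least 2-fold higher in tdTomato-only cells and none in double-positive cells, with list medians of 0.05 and 0.00 on the log2 scale. Nr1i3, the xenobiotic receptor CAR, had spots of 124 and 130 in EGFP-only, 149 in double-positive and 219 in tdTomato-only cells, with ratios of 0.48 and 1.02. Mafk, a small Maf protein that pairs with NRF2, had 0.83 and 1.14, and both were under 2-fold with median centring (0.75 each in tdTomato-only cells). Nfe2l2, which encodes NRF2, had 1150 and 1057 in EGFP-only, 464 in double-positive and 689 in tdTomato-only cells, with ratios of −0.77 and −0.12. The xenobiotic receptor Nr1i2 (PXR) was at −0.35 and −0.29, the aryl hydrocarbon receptor Ahr at 0.13 and −0.09 and Hnf4a at −0.09 and −0.37. Nfe2l2, Nr1i2, Ahr and Hnf4a were chosen after their values were seen. The 5 measured electron donors of P450s, among them the reductase Por (0.28 and 0.34), all stayed within 2-fold.

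Of 15 measured genes of glutathione synthesis and recycling, 3 (20.0%) were at least 2-fold higher in double-positive cells against 5.1% of all genes, and 3 of 14 (21.4%) in tdTomato-only cells against 6.15%. All 3 act in glutathione breakdown. Other breakdown genes of the list stayed within 2-fold, among them Ggt6 (−0.21 and −0.05), Ggct (0.26 and 0.25) and Anpep (0.70 and 0.79). Ggt6, Ggct and Anpep were chosen after their values were seen. Ggt1, the cell surface enzyme that cleaves glutathione, had 171 in EGFP-only cells on both arrays, 327 in double-positive and 547 in tdTomato-only cells, with log2 ratios of 1.37 and 2.14. Dpep1, the dipeptidase that acts after it, had 1.71 and 2.31. Chac1, an intracellular enzyme of glutathione breakdown induced by endoplasmic reticulum stress, had 84.1 and 82.1 in EGFP-only, 412 in double-positive and 281 in tdTomato-only cells, with ratios of 2.84 and 2.16. Of the synthesis genes, also chosen after their values were seen, Gclc was at 0.18 and 0.16, Gclm at 0.06 and 0.12 and Gss at −0.52 and −0.52. The list medians were 0.26 and 0.31, and −0.17 and −0.17 with median centring.

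Among 29 measured other phase I and II enzymes, 2 (6.9%) were at least 2-fold higher in double-positive and 3 (10.3%) in tdTomato-only cells, against 5.1% and 6.15% of all genes. The first share is close to that of all genes and says nothing particular about the list. The genes were the carbonyl reductase Cbr2 (1.55 and 1.85), the xanthine dehydrogenase Xdh (1.64 and 1.73) and the epoxide hydrolase Ephx2 (0.69 and 1.10). Of 22 antioxidant genes 1 (4.55%) was past 2-fold higher in each comparison, a share no greater than that of all genes, the haem oxygenase Hmox1, with spots of 179 and 170 in EGFP-only, 893 in double-positive and 624 in tdTomato-only cells and ratios of 2.91 and 2.35. The list medians of the antioxidant genes were both −0.08, and −0.61 and −0.58 with median centring. Of 19 retinoid genes 2 and 3 were past 2-fold, the retinol-binding proteins Rbp2 (1.23 and 1.81) and Rbp4 (1.92 and 1.44) and, in tdTomato-only cells, the retinol dehydrogenase Rdh7 (0.49 and 1.00). Rbp2 is also among the enterocyte markers. Of 16 transporters 2 (12.5%) were past 2-fold in tdTomato-only cells, the sterol exporter Abcg5 (0.82 and 1.46) and Slc22a18 (0.48 and 1.17). No gene of the 7 lists was at least 2-fold lower in either comparison as reported, but this depended on the processing. Median centring put several there, among them Prdx1 (−1.43 and −1.28) and, in double-positive cells, Nfe2l2 (−1.30) and Gss (−1.04). The deposited ratios put others there, among them Hnmt (−1.76 and −1.58) and Rdh13 (−1.84 and −1.20).

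**Figure D4:**
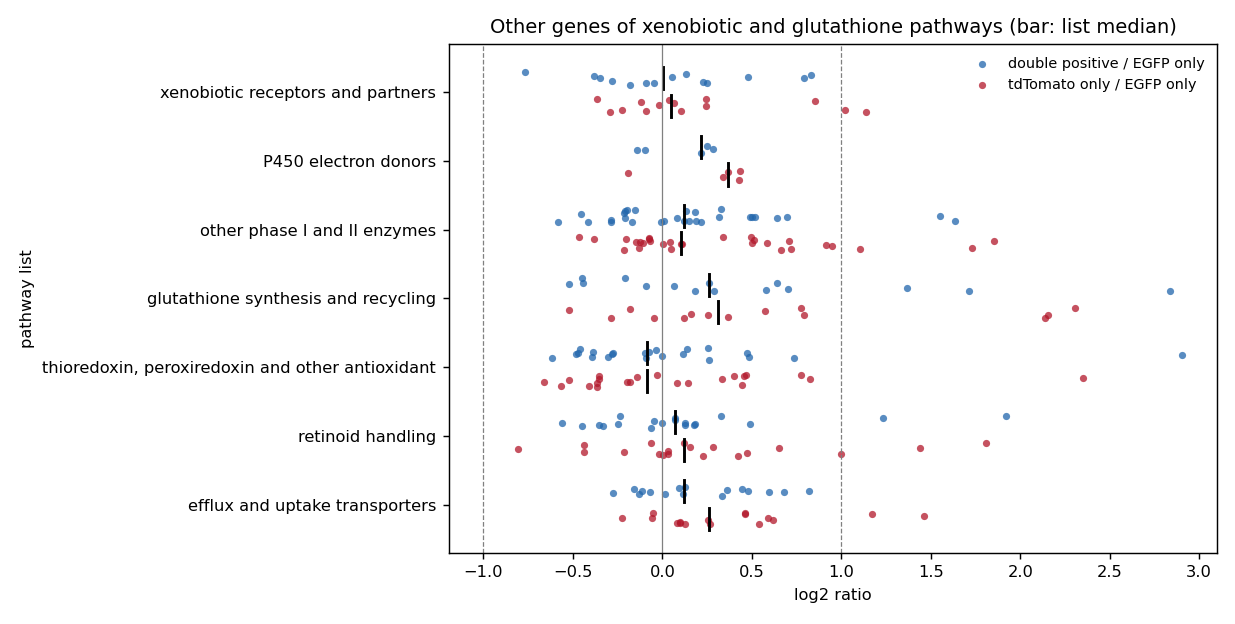
Log2 ratios (horizontal axis) of the genes of 7 partner lists (vertical axis), each point 1 gene, blue for double positive and red for tdTomato only over EGFP only; bars are list medians and dashed lines mark 2-fold. The list medians lie between −0.08 and 0.37, and the points farthest right are Hmox1 (2.91) and Chac1 (2.84) in double-positive cells.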

How the data were processed

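Sorted cells gave total RNA that was amplified as amino allyl aRNA, dyed with Cy3 or Cy5 and put on Toray arrays, per the labels' protocols. The authors deposited spot median intensities in both colours, without background subtraction as judged from blank spots above 0; per the file headers, scans at several gains were combined. The deposited series table holds log2 ratios that the authors normalized, with EGFP only as the denominator per the labels; the steps are not stated there. Each array had 27456 spots, 3982 of them controls and 2736 of these blank.

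With limma 3.58.1 in R 4.3.3, intensities were corrected by normexp (offset 50, no local background), and each array was normalized by loess, giving weight 0 to controls and to spots marked for quality. A probe was above background past the mean plus 2 SD of the blanks, which was 74.1 (EGFP only) and 82.2 (double positive) on the first array and 75.7 and 85.4 (tdTomato only) on the second. Medians over all 23474 probes were 98.3, 104, 98.2 and 108. No member was saturated or quality-marked. The number of arrays limits the precision. Several probes of 1 gene were averaged where above background, and 1 array per comparison allowed no test. The third comparison is the second array's log2 ratio minus the first's. For a member above background in 1 channel alone, the bound is its level after loess and Aquantile over the dim level, or over the lowest level above background where that was higher, which dye bias can affect.

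Symbols came from the platform annotation, 16632 probes with 1 gene and 6842 unnamed here. Of the members' symbols, 138 were current, 6 were updated through RefSeq synonyms and 2 (Ces2, Ces3) were ambiguous and kept. The sources used here do not name the build behind the array. Promoters came from RefSeq's GRCm38.p6 table, which held 120 members, and were searched in Python 3.11.15 and aligned with Biopython 1.88.

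Members and lists were chosen with earlier results of these data known. The genes named were all members past 2-fold, the 3 with the largest ratio of either sign per family and comparison, members with a bound of at least 1.5-fold (none reached it, so Gpx7 and Aldh1l2 are named after their values were seen), the 3 nearest 2-fold on either side, the 5 with the brightest spots, and list members past 2-fold. Cyp1a1, Cyp3a25, Cyp4f13, Gsta3, Gstm3, Gstm5 and Por were added after their values were seen. Alternatives were the deposited ratios, subtraction of the blank mean, median centring without loess, quantile normalization, an offset of 16, a limit of 3 SD, no filter on dim probes, and the brightest probe of each gene. The steps were tested on simulated arrays.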

Additional observations from a re-analysis of the deposited data

Results flagged for a closer look

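Akr1c14 was picked out because its ratios against EGFP only lay on opposite sides of 0, with a log2 ratio of −0.095 in double-positive and 1.18 in tdTomato-only cells. Under the 8 other ways of processing the first ran from −0.48 to −0.088 and the second from 0.75 to 1.38. The difference was not tested, since there is 1 array for each comparison and both share the EGFP-only population. The first value is close to the technical spread of the EGFP-only channel, an SD of 0.06. Ratios on opposite sides of 0 were also found for other members. Among these were Aldh9a1 (−0.36 and 0.25) and Mgst3 (−0.01 and 0.69), both within 2-fold, so the change of sign is not particular to Akr1c14.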

How the results depend on the processing

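In double-positive cells 13 members were higher and 7 lower in the deposited ratios, 14 and 6 after subtraction of the blank mean, 10 higher at an offset of 16, and 11 lower with median centring, against 6 and 2 as reported. The median of 0.03 became −0.14 with median centring and −0.033 after quantile normalization. In tdTomato-only cells lower members numbered 8 in the deposited ratios, 3 after that subtraction, 8 with median centring, and 2 each after quantile normalization and at an offset of 16, against 1. The median of 0.17 became 0.27 in the deposited ratios, 0.30 after the subtraction, −0.023 with median centring, 0.088 after quantile normalization, 0.25 at an offset of 16 and 0.059 without the filter on dim probes. Between the tdTomato populations 7 members were higher in the deposited ratios, and 8 higher and 1 lower (Cyp2j5) after the subtraction, against 4 and 0, and the median of 0.13 became 0.23. For each of these shifts the cause was not tested. Of 72 such values over the 8 alternatives, 49 stayed within 1.5 times the count or 1 technical SD of the median. The count of higher members in tdTomato-only cells ran from 12 to 24. Leaving out a replicate was not possible, with 1 array per comparison. No paired analysis was possible because each population was 1 pool and no test was made. Probes near the blanks, such as those of Cyp3a11, Cyp3a16 and Cyp2b9, have ratios that depend on the background step.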

Other observations

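Another 14 genes now carry a symbol of these enzyme families in RefSeq, though the array's annotation lists them under older names, and 7 of them were above background in both channels on each array. Ces1f, a carboxylesterase annotated as AU018778, had spots of 311 and 303 in EGFP-only, 468 in double-positive and 670 in tdTomato-only cells. Its log2 ratios were 1.09 and 1.62, past 2-fold in both. Cyp2d12 was at 0.80 and 0.69, Sult6b2 at 0.21 and 0.67 and Akr1b10 at 0.04 and 0.52. The remaining 3 were Ces1e (−0.09 and 0.06), Ces2g (−0.03 and −0.12) and Cyp4f41-ps (0.12 and 0.02). Gpx8, Aldh3b3 and Sult2a8 were above background in both Cy3 populations and not in EGFP-only cells.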
